A study of Mus musculus with 24 samples.

Results

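The mitochondrial carriers of the Slc25 family are membrane proteins that move nucleotides, phosphate, carboxylates, amino acids, cofactors and iron, most of them across the inner mitochondrial membrane. The members described here are the genes whose name on the array is Slc25a followed by a number, each read from its probe with the highest mean heart signal. There were 32 such genes among 27962 named features. Of these, 24 passed the detection filter, meaning that the heart-channel spot was well above background on every array of 1 or more groups, and were tested among 11448 features. The other 8 (Slc25a2, Slc25a15, Slc25a18, Slc25a21, Slc25a23, Slc25a27, Slc25a31 and Slc25a34) failed it, and no level is given for them. The name mitochondrial does not cover every member, since Slc25a17 encodes the peroxisomal carrier of the family.

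Hearts came from mice aged 12 to 16 weeks, labelled MuRF1 Tg+ or wild type (MuRF1+/+) and described as strain-matched. MuRF1 is a ubiquitin ligase of striated muscle, encoded by Trim63. The mice had either ischemia-reperfusion surgery (I/R; a coronary artery, the left anterior descending one, is tied off and then released) or a sham operation. Tissue below and tissue above the tie, or where a tie would have been placed, was hybridised separately. The 24 arrays thus fall into 8 groups of 3: MuRF1 Tg+ I/R, MuRF1 Tg+ sham, wild-type I/R and wild-type sham, each below and above. The promoter of the transgene, the line and the time between release and harvest are not given in the sources used here. Heart RNA was labelled with Cy5, and Cy3-labelled RNA from a pool of whole pups on postnatal day 1 was the common reference, so a level below is a log2 ratio of adult heart over pup. A log2 ratio compares a gene with itself in the pup pool and does not rank genes by abundance.

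Each turn of oxidative phosphorylation needs phosphate and ADP in the matrix and ATP outside it. Phosphate enters through the Slc25a3 carrier, and ADP is exchanged for ATP by the translocases Slc25a4 and Slc25a5, of which Slc25a4 is the main form in heart and skeletal muscle. The malate-aspartate shuttle brings reducing equivalents into the matrix through the oxoglutarate carrier Slc25a11 and the aspartate-glutamate carriers Slc25a12 and Slc25a13. Long-chain fatty acids reach the matrix as acylcarnitines through Slc25a20.

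The 60-base probes of the phosphate carrier and of the translocases are shown because Slc25a3 and Slc25a4 were each read by 2 detected probes. Those of Slc25a4 disagreed in MuRF1 Tg+ tissue below the site. Whether the stretch of transcript read was the reason was not tested. The brighter Slc25a4 probe and the Slc25a5 probe read the same region of these related genes. Over 54 aligned bases they shared 45 (83.3%), and capitals mark the 9 bases at which they differ. The lower-case probes have no such counterpart here. Slc25a4 lies on chromosome 8, Slc25a5 on chromosome X and Slc25a3 on chromosome 10. The starts of the 2 Slc25a4 probes are 1613 bases apart in the genome and those of the 2 Slc25a3 probes 3505 bases, by the array's own annotation, whose build is not named.
Slc25a4, brighter probe: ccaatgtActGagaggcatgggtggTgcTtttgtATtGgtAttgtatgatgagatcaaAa
Slc25a5: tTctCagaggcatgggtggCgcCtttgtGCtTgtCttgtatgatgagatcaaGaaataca
Slc25a4, dimmer probe: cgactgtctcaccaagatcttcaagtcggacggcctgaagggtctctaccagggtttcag
Slc25a3, brighter probe: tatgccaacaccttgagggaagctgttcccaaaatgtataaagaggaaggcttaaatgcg
Slc25a3, dimmer probe: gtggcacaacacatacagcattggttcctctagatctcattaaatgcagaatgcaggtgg

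Several I/R arrays had a weak Cy5 signal. Between 9.90% and 38.3% of Cy5 spots were well above background on the 12 I/R arrays, against 34.6% to 43.3% on the 12 sham arrays. The 5 arrays under 25% were MuRF1 Tg+ I/R below replicates 2 (13.5%) and 3 (20.1%), wild-type I/R below replicate 1 (9.90%) and wild-type I/R above replicates 1 (24.2%) and 2 (15.7%). Trim63 did not separate the genotypes: in sham hearts its log2 ratio averaged 2.36 ± 0.09 in MuRF1 Tg+ and 2.34 ± 0.13 in wild type above the site (SD, n = 3 each), and 2.28 ± 0.10 and 2.35 ± 0.17 below it. Whether its probe reads the transgene is not stated, so Tg+ means labelled Tg+ throughout. The 7 ventricular muscle markers were detected on every sham array, and neutrophil markers were higher after I/R in every group, as given below. In pieces of tissue, fewer cells of a type and less RNA per cell cannot be told apart.

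Across the sham arrays the carriers ranged from well above to well below the pup pool. Slc25a4 was the highest, with a median log2 ratio of 3.92 on the 11 I/R arrays that measured it and 3.93 on the 12 sham arrays. Slc25a11 followed, with medians of 1.94 on I/R arrays and 2.18 on sham arrays, and Slc25a13 with 0.72 on I/R arrays and 1.59 on sham arrays. At the other end Slc25a37 (mitoferrin 1, an iron importer) had medians of -1.88 on I/R arrays and -1.91 on sham arrays. Slc25a17 had -0.82 and -1.43, and Slc25a24 (a calcium-regulated ATP-Mg/phosphate carrier) had -0.53 and -1.10, again on I/R and sham arrays. These levels describe the adult heart against the pup and were not tested.

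**Figure D1:**
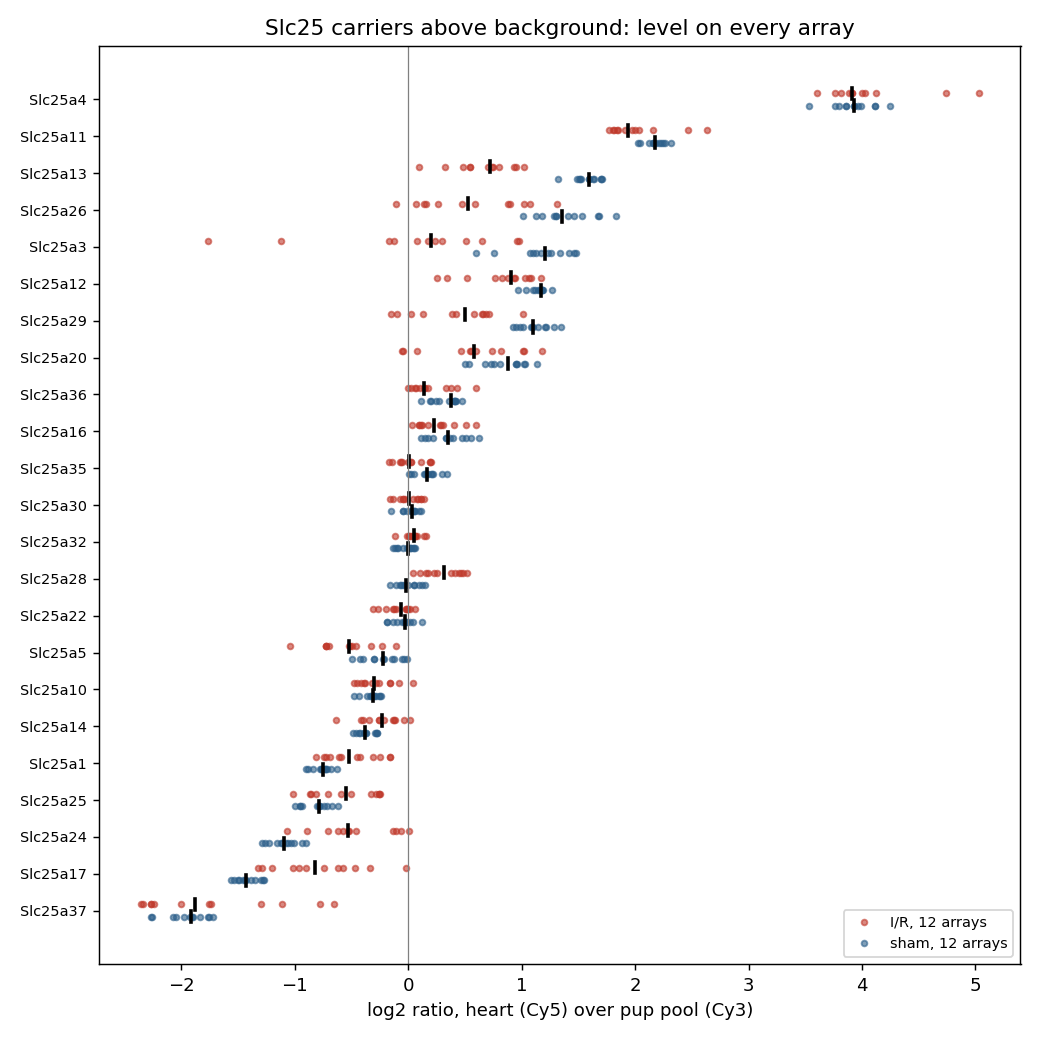
Log2 ratio of heart over pup pool (horizontal axis) for the Slc25 carriers above background that are described here, with each point 1 array, the I/R arrays plotted above the sham arrays and black ticks at the medians. Slc25a4 sits far to the right at a sham median of 3.93 and Slc25a37 far to the left at -1.91, and for Slc25a13 the highest I/R array (1.02) lies left of the lowest sham array (1.32).

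I/R against sham was compared in each genotype and piece, in 1 limma fit over all 24 arrays with Benjamini-Hochberg adjustment over all features tested. An adjusted p under 0.05 is called a change below. In MuRF1 Tg+ tissue below the site, 3 of the 24 carriers rose and 7 fell, beside 15.3% of all features that rose and 17.1% that fell (32.5% in either direction). In MuRF1 Tg+ tissue above the site, 1 rose and 6 fell, beside 6.94% and 8.41% of all features (15.3% in all). In wild-type tissue below the site none rose and 2 fell, beside 2.15% and 3.45% (5.6% in all). In wild-type tissue above the site 2 rose and 3 fell, beside 5.98% and 7.3% (13.3% in all). The median log2 difference of the 24 carriers was -0.01 in Tg+ below, -0.13 in Tg+ above, 0.02 in wild type below and -0.06 in wild type above, against medians between -0.003 and 0.003 over all features. Neither the shares nor the medians of the carriers were tested as a group.

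**Figure D2:**
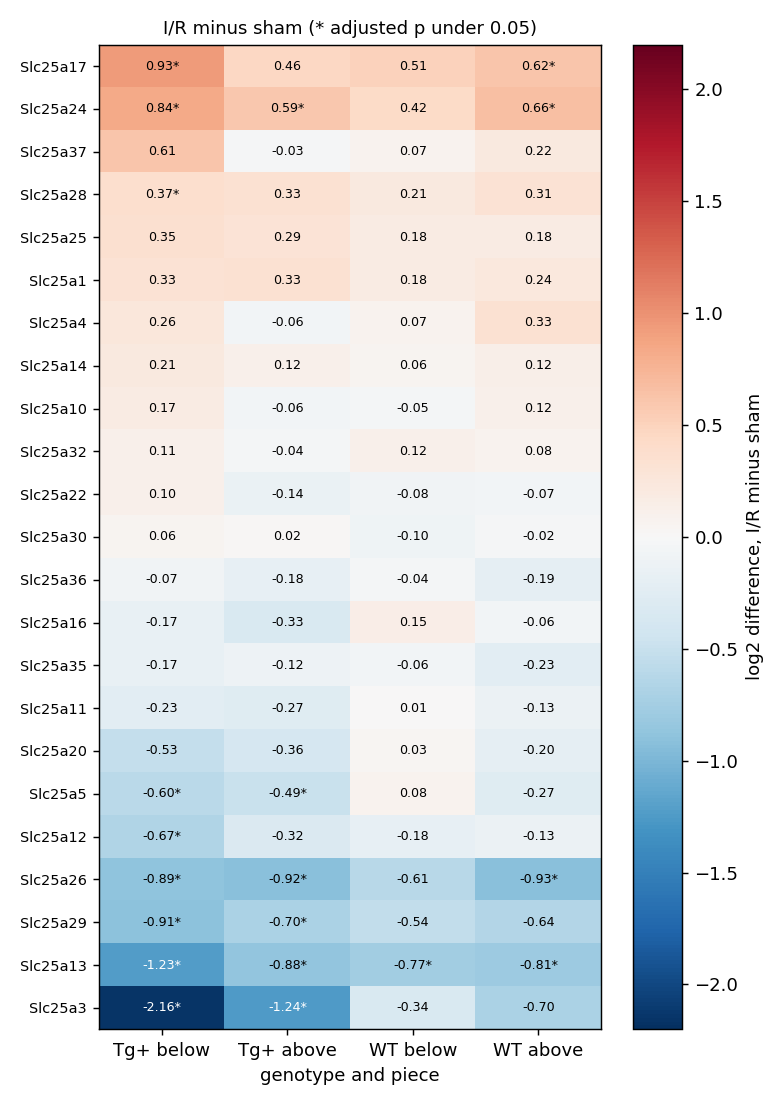
Log2 difference, I/R minus sham, of the carriers described here (rows) in the 4 combinations of genotype and piece (columns), with red for higher and blue for lower after I/R and an asterisk where the adjusted p was under 0.05 in limma. Slc25a13 carries an asterisk in all 4 columns, and Slc25a3 has the largest fall, -2.16 in MuRF1 Tg+ tissue below the site.

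Of the carriers that serve ATP synthesis, Slc25a3 and Slc25a5 fell after I/R in both pieces of MuRF1 Tg+ hearts, while no change was called in wild type. Slc25a3, the phosphate carrier, read 0.24, -1.12 and -1.76 in Tg+ I/R below, against 1.26, 1.24 and 1.34 in Tg+ sham below. It read 0.65, -0.13 and -0.17 in Tg+ I/R above, against 1.48, 1.13 and 1.46 in Tg+ sham above. No I/R array overlapped the sham arrays in either piece. The differences were -2.16 ± 0.36 (SE, 4.47-fold lower, adjusted p = 0.0004296 in limma, n = 3 each) below and -1.24 ± 0.36 (2.36-fold lower, adjusted p = 0.02637) above. Its 3 arrays read 0.07, 0.95 and 0.97 in wild-type I/R below, against 0.75, 1.17 and 1.10 in wild-type sham below. They read 0.30, 0.17 and 0.51 in wild-type I/R above, against 0.59, 1.07 and 1.42 in wild-type sham above. In wild type the groups overlapped below the site and lay apart above it, with differences of -0.34 ± 0.36 (95% interval -1.09 to 0.41, adjusted p = 0.625) and -0.70 ± 0.36 (-1.45 to 0.05, adjusted p = 0.1905) in limma.

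The dimmer Slc25a3 probe gave -1.85 ± 0.43 in Tg+ below (adjusted p = 0.004206 in a limma fit of 15427 probes) and -1.36 ± 0.43 above (adjusted p = 0.03651). The 2 lowest Slc25a3 values, -1.12 and -1.76, came from arrays with 13.5% and 20.1% of Cy5 spots above background. Without the 5 arrays under 25% the difference in Tg+ below was -1.04 ± 0.29 (adjusted p = 0.02345 in limma). Leaving out these 5 arrays leaves 1 I/R array in Tg+ below, 1 in wild type above, 2 in wild type below and all 3 in Tg+ above, and a lone array is assumed to vary like the other groups. In Tg+ above, where no array was that weak, the fall was called in 2 of the 6 fits that left out 1 array, and the difference then ranged from -1.51 to -1.09.

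Slc25a5, the second translocase, read -0.72, -0.52 and -1.05 in Tg+ I/R below, against -0.14, -0.23 and -0.13 in Tg+ sham below. Above the site it read -0.72, -0.51 and -0.72 in Tg+ I/R, against -0.01, -0.42 and -0.06 in Tg+ sham. The I/R arrays were lower than every sham array of the same piece. The differences were -0.60 ± 0.13 (1.52-fold lower, adjusted p = 0.003432 in limma) below and -0.49 ± 0.13 (1.40-fold lower, adjusted p = 0.02043) above. In wild type the values overlapped, at -0.33, -0.23 and -0.11 in I/R below against -0.39, -0.21 and -0.30 in sham below. Above the site they were -0.70, -0.46 and -0.49 in wild-type I/R, against -0.49, -0.30 and -0.04 in wild-type sham. The wild-type differences were 0.08 ± 0.13 below (95% interval -0.20 to 0.36) and -0.27 ± 0.13 above (-0.55 to 0.01).

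Slc25a4 showed no called change on its brighter probe, and its 2 probes disagreed. The brighter probe read 3.92, 4.74 and 3.88 in Tg+ I/R below, against 3.93, 3.86 and 3.99 in Tg+ sham below. It read 3.61, 4.03 and 3.77 in Tg+ I/R above, against 3.80, 3.86 and 3.93 in Tg+ sham above. Wild-type I/R below had 4.12 and 4.00 on replicates 2 and 3, with the spot of replicate 1 left out because it was flagged as an outlier, against 4.25, 3.76 and 3.96 in wild-type sham below. Wild-type I/R above read 3.82, 5.03 and 3.91, against 4.11, 4.11 and 3.53 in wild-type sham above. All 4 pairs of groups overlapped, and the differences ran from -0.06 to 0.33.

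The dimmer Slc25a4 probe read 2.50, 1.53 and 1.12 in Tg+ I/R below, against 2.81, 2.76 and 2.72 in Tg+ sham below. All 3 I/R arrays were lower than the sham arrays, by 1.05 ± 0.27 on average (log2 difference -1.05, adjusted p = 0.009751 in the limma fit of probes), where the brighter probe gave 0.26 ± 0.26 (adjusted p = 0.4625). The brighter probe's difference in Tg+ below also turned negative on Feature Extraction's own log ratio (-1.13, adjusted p = 0.01339 in limma). Between genotypes after I/R below the site, the dimmer probe was lower in Tg+ (-1.25 ± 0.27, adjusted p = 0.0322 in the limma fit of probes) and the brighter one differed by 0.12 ± 0.30. The direction of Slc25a4 in that tissue therefore depends on the probe and on the scaling.

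**Figure D3:**
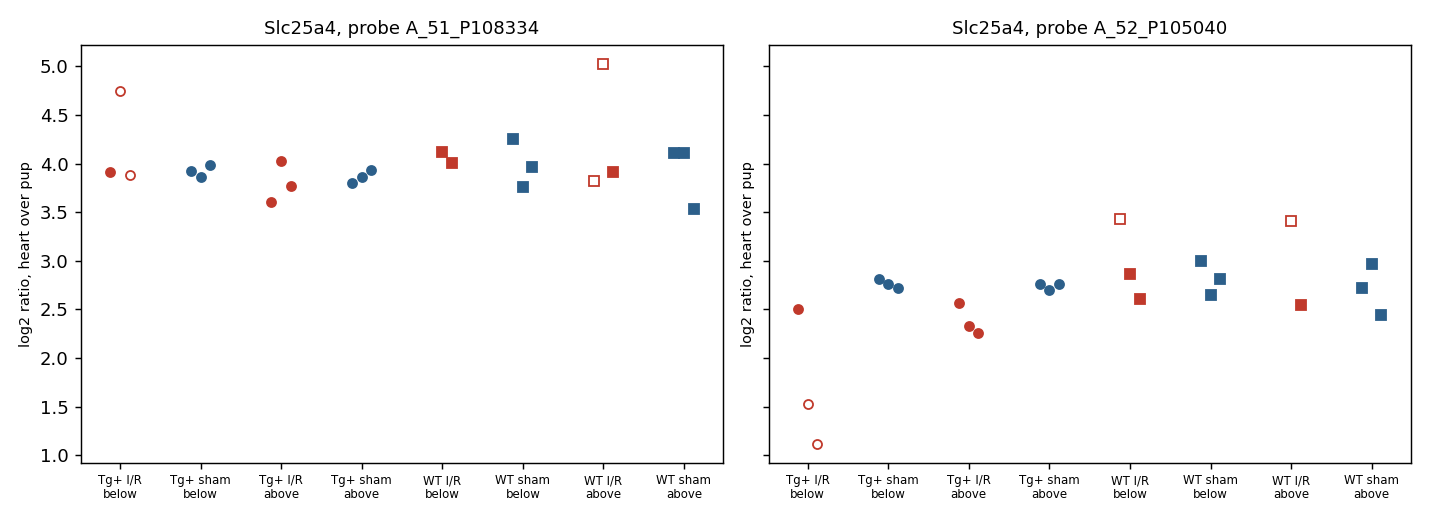
Log2 ratio of heart over pup pool (vertical axis) on each array for the brighter Slc25a4 probe (left) and the dimmer one (right) in the 8 groups, with circles for MuRF1 Tg+, squares for wild type (WT), red for I/R, blue for sham and open symbols for arrays with under 25% of Cy5 spots above background. In Tg+ I/R below, the dimmer probe falls to 1.12, while the brighter one stays between 3.88 and 4.74.

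Among the shuttle carriers, Slc25a13 fell in all 4 comparisons and was the member with the smallest p in each. Slc25a13 (citrin) exchanges matrix aspartate for cytosolic glutamate and is better known from liver. It read 0.74, 0.32 and 0.09 in Tg+ I/R below, against 1.70, 1.50 and 1.64 in Tg+ sham below. It read 0.48, 0.70 and 0.80 in Tg+ I/R above, against 1.59, 1.32 and 1.70 in Tg+ sham above. Wild-type I/R below read 0.54, 0.95 and 1.02, against 1.51, 1.60 and 1.71 in wild-type sham below. Wild-type I/R above read 0.75, 0.93 and 0.54, against 1.49, 1.63 and 1.52 in wild-type sham above. All 12 I/R arrays were lower than all 12 sham arrays, which held for 1 of the 24 members beside 2.74% of all features. No member had every I/R array above every sham array, beside 2.45% of all features.

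The Slc25a13 differences were -1.23 ± 0.15 in Tg+ below (2.34-fold lower, adjusted p = 4.526e-05 in limma) and -0.88 ± 0.15 in Tg+ above (1.83-fold lower, adjusted p = 0.001457). In wild type they were -0.77 ± 0.15 below (1.70-fold lower, adjusted p = 0.006274) and -0.81 ± 0.15 above (1.75-fold lower, adjusted p = 0.002443). It was called in all 24 fits that left out 1 array of the comparison. Without the 5 weak arrays it remained lower in all 4 comparisons, between -1.004 and -0.62, with adjusted p from 9.399e-06 to 0.001987 in limma, where Tg+ below and wild type above had 1 I/R array each. Of 16 other settings, among them that one, it was called in 16 for Tg+ below, 15 for Tg+ above, 10 for wild type below and 12 for wild type above. Without loess only the call in Tg+ below was kept. Both wild-type calls were also lost on Feature Extraction's own log ratio, on the series value table and with slide as a block, and that below the site also on the Cy5 channel alone and in a fit of only the arrays compared. On the single pair of arrays that shared a slide in each comparison, the differences were -1.31 (Tg+ below), -0.99 (Tg+ above), -0.69 (wild type below) and -0.74 (wild type above), with no error of their own.

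Slc25a12, the aspartate-glutamate carrier typical of heart and muscle, fell in 1 comparison. It read 0.88, 0.25 and 0.35 in Tg+ I/R below, against 1.19, 1.18 and 1.12 in Tg+ sham below, a difference of -0.67 ± 0.15 (1.59-fold lower, adjusted p = 0.003171 in limma). The 2 low arrays were again the weak ones, and without the weak arrays the difference was -0.28 ± 0.15 (adjusted p = 0.2336). Above the site it read 0.94, 0.52 and 1.03 in Tg+ I/R, against 1.16, 1.10 and 1.18 in Tg+ sham (difference -0.32 ± 0.15, adjusted p = 0.1406 in limma). That difference passed the threshold in the fit without the weak arrays, none of which lies in these groups (-0.32 ± 0.11, adjusted p = 0.02445 in limma). Wild-type I/R read 0.83, 0.93 and 1.09 below, against 1.18, 1.04 and 1.17 in wild-type sham. Above the site wild-type I/R read 0.76, 1.07 and 1.17, against 0.97, 1.27 and 1.14 in wild-type sham. The wild-type differences were -0.18 and -0.13, and neither was called.

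Slc25a11, the oxoglutarate-malate carrier, was not called in any comparison in the fit of all arrays. It read 1.84, 2.04 and 2.16 in Tg+ I/R below, against 2.15, 2.25 and 2.32 in Tg+ sham below. It read 1.85, 1.91 and 1.81 in Tg+ I/R above, against 2.12, 2.02 and 2.23 in Tg+ sham above. Wild-type I/R read 2.64, 1.81 and 2.00 below, against 2.21, 2.04 and 2.17 in wild-type sham. Above the site wild-type I/R read 1.97, 2.46 and 1.77, against 2.16, 2.26 and 2.19 in wild-type sham. The high values, 2.64 and 2.46, were on weak arrays (9.90% and 15.7%). Without the weak arrays the differences were -0.40 ± 0.11 in Tg+ below, -0.27 ± 0.08 in Tg+ above and -0.43 ± 0.11 in wild type above, with adjusted p = 0.02074, 0.01008 and 0.01265 in limma, and -0.24 ± 0.08 in wild type below (adjusted p = 0.07842). Of these, the values for Tg+ below and wild type above each rest on 1 I/R array. Slc25a22, a glutamate carrier, differed by -0.14 to 0.10 and was not called. Its spot was well above background on 1 of 3 arrays in each of Tg+ I/R below, Tg+ I/R above and wild-type I/R above. In wild-type I/R below it was so on 2 of 3, and the small differences are thus read near background.

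**Figure D4:**
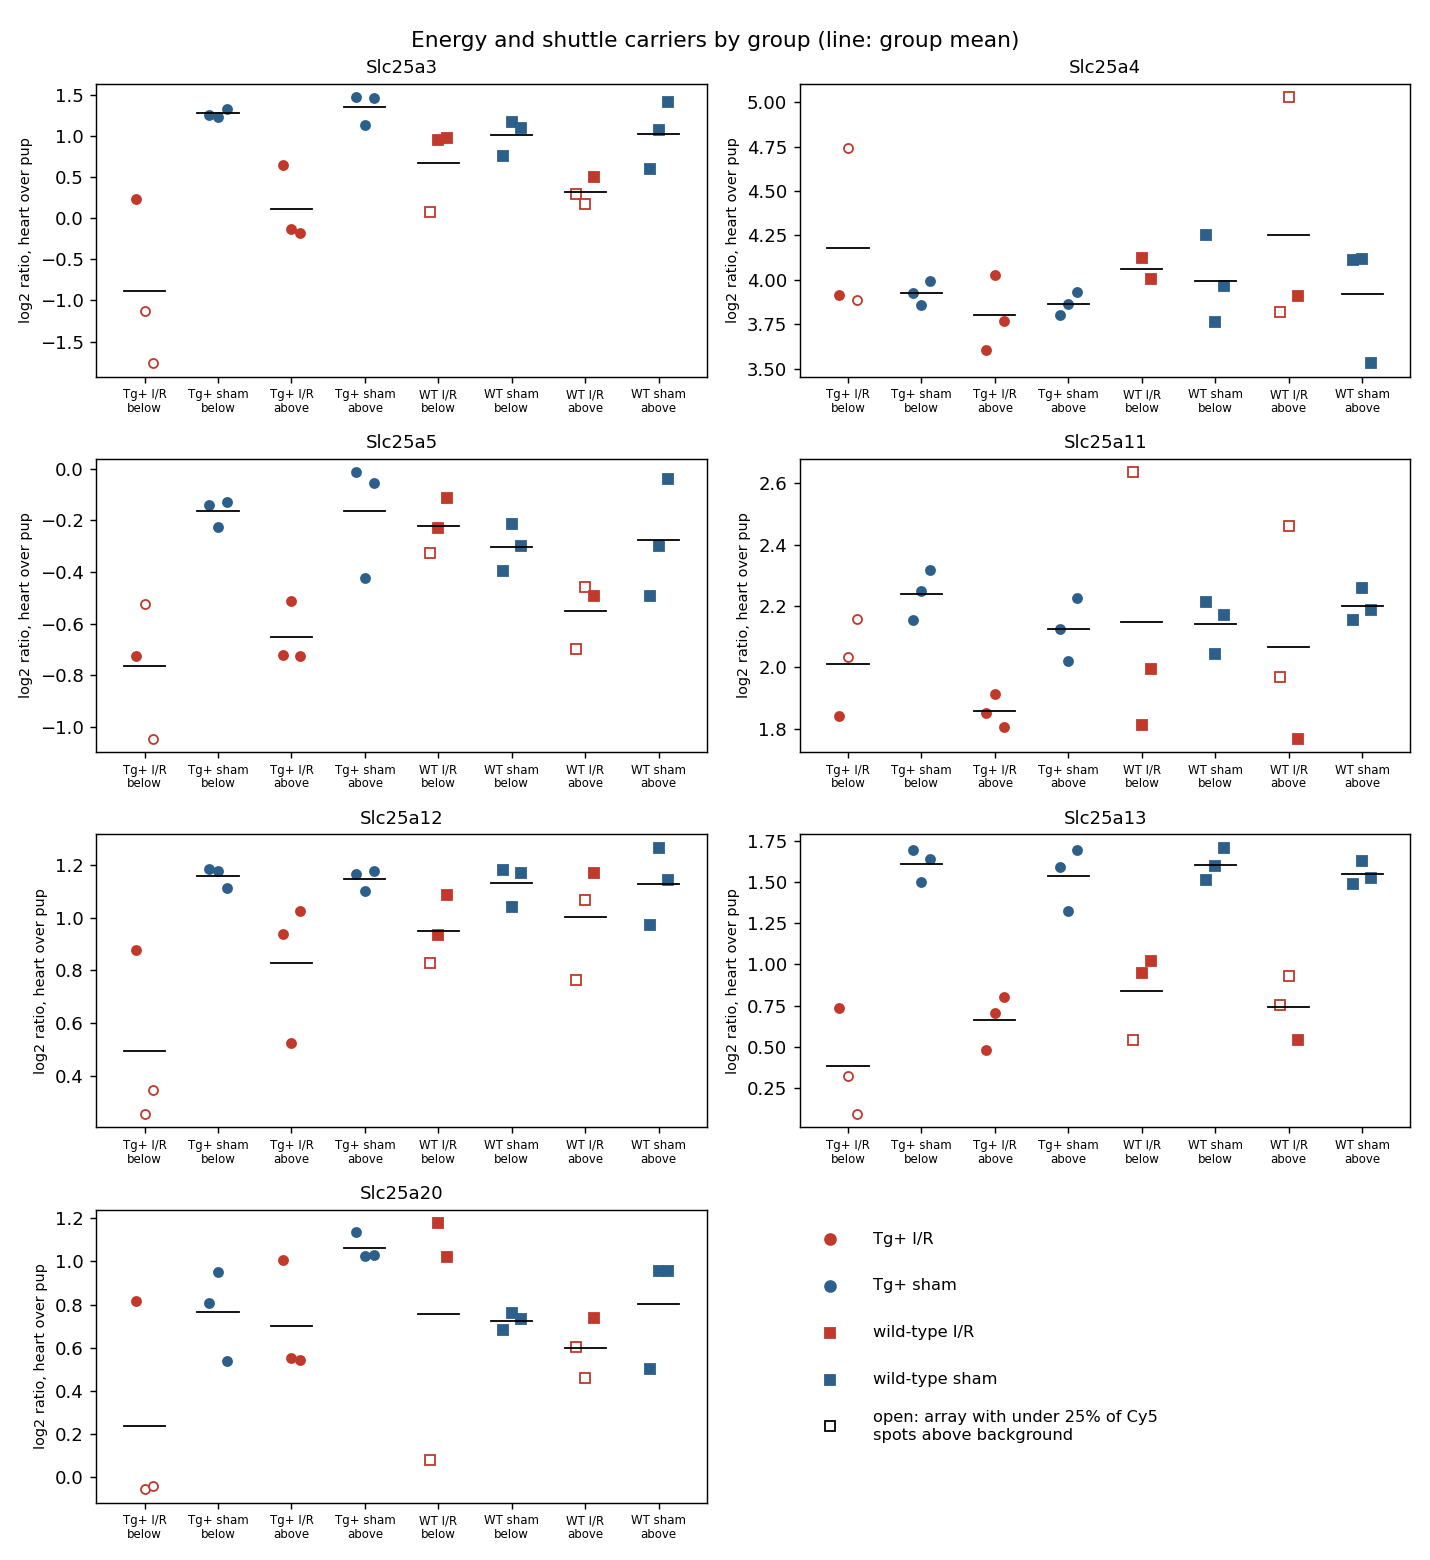
Log2 ratio of heart over pup pool (vertical axis) on each array for 7 carriers of energy exchange and shuttling in the 8 groups, with circles for MuRF1 Tg+, squares for wild type (WT), red for I/R, blue for sham, open symbols for arrays with under 25% of Cy5 spots above background and a line at each group mean. The Slc25a13 panel shows 12 I/R points below 12 sham points, while in the Slc25a3 panel the lowest points, -1.12 and -1.76, are open circles of Tg+ I/R below.

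The carnitine and amino acid carriers above background were Slc25a20 and Slc25a29. Slc25a20, the carnitine-acylcarnitine carrier, was not called in the fit of all arrays. It read 0.81, -0.06 and -0.04 in Tg+ I/R below, against 0.81, 0.95 and 0.54 in Tg+ sham below, and 1.01, 0.55 and 0.54 in Tg+ I/R above, against 1.14, 1.02 and 1.03 in Tg+ sham above. Wild-type I/R read 0.08, 1.18 and 1.02 below, against 0.68, 0.76 and 0.73 in wild-type sham, and 0.60, 0.46 and 0.74 above, against 0.50, 0.95 and 0.95 in wild-type sham. The 3 lowest of these values, -0.06, -0.04 and 0.08, were on weak arrays. Its differences ranged from -0.53 ± 0.24 (Tg+ below, adjusted p = 0.09772 in limma) to 0.03 ± 0.24 (wild type below), and without the weak arrays that of Tg+ below was 0.05 ± 0.19. In Tg+ above the fit without the weak arrays gave -0.36 ± 0.14 (adjusted p = 0.04137 in limma). Its spot was well above background on 2 of 3 arrays in each of Tg+ I/R below and wild-type I/R below.

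Slc25a29, a carrier of basic amino acids, fell in both pieces of Tg+ hearts. It read 0.42, -0.15 and 0.13 in Tg+ I/R below, against 1.09, 1.08 and 0.95 in Tg+ sham below, and 0.38, 0.71 and 0.58 in Tg+ I/R above, against 1.29, 1.14 and 1.35 in Tg+ sham above. The groups did not overlap in either piece. Its spot was well above background on 1 of 3 arrays of Tg+ I/R below, on 2 of 3 in each wild-type I/R group and on all arrays of the other groups. The differences were -0.91 ± 0.21 below (adjusted p = 0.00431 in limma) and -0.70 ± 0.21 above (1.62-fold lower, adjusted p = 0.03147). Its dimmer probe gave -0.48 ± 0.15 in Tg+ below (adjusted p = 0.02171 in the limma fit of probes). Wild-type I/R read 0.03, 0.66 and 1.01 below, against 0.98, 1.21 and 1.10 in wild-type sham, and 0.68, -0.10 and 0.65 above, against 1.01, 0.92 and 1.21 in wild-type sham. The wild-type differences, -0.54 below and -0.64 above, were not called (adjusted p = 0.1478 and 0.0517 in limma). Above the site in Tg+ hearts the call was kept in 1 of the 6 fits that left out an array.

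Among the cofactor and nucleotide carriers, Slc25a26 fell and Slc25a17 rose. Slc25a26 imports S-adenosylmethionine, the methyl donor of the matrix. It read 0.58, 0.07 and 0.27 in Tg+ I/R below, against 1.18, 1.28 and 1.13 in Tg+ sham below, and 0.88, 0.90 and 0.14 in Tg+ I/R above, against 1.53, 1.67 and 1.46 in Tg+ sham above. Wild-type I/R above read 0.48, 0.16 and 1.02, against 1.30, 1.30 and 1.83 in wild-type sham above. These I/R arrays were all lower than their sham arrays, and the differences were -0.89, -0.92 and -0.93, each ± 0.30 (adjusted p = 0.03066, 0.04494 and 0.04735 in limma). In wild-type I/R below the values -0.11, 1.07 and 1.31 overlapped those of wild-type sham below (1.01, 1.69 and 1.41), and the difference of -0.61 was not called. Its spot was well above background on 1 of 3 arrays of Tg+ I/R below, on 2 of 3 in each wild-type I/R group and on all arrays of the other groups. A further, dimmer probe gave -0.56 ± 0.15 in Tg+ below (adjusted p = 0.01154 in the limma fit of probes), and -0.34 ± 0.15 in Tg+ above and -0.38 ± 0.15 in wild type above, which were not called there (adjusted p = 0.1363 and 0.102). Without the weak arrays the brighter probe's difference was -0.61 in Tg+ below (adjusted p = 0.1512 in limma) and -0.45 in wild type above (adjusted p = 0.3238). Each of the 3 calls was kept in 1 of the 6 fits that left out an array.

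Slc25a17, the peroxisomal carrier, read -0.74, -0.02 and -0.47 in Tg+ I/R below, against -1.46, -1.30 and -1.28 in Tg+ sham below, and -0.62, -0.57 and -0.96 in wild-type I/R above, against -1.28, -1.38 and -1.35 in wild-type sham above. In these comparisons no I/R array overlapped the sham arrays. It rose by 0.93 ± 0.20 (1.91-fold, adjusted p = 0.002442 in limma) in Tg+ below and by 0.62 ± 0.20 (1.53-fold, adjusted p = 0.04525) in wild type above. Without the weak arrays, with 1 I/R array left in each of these comparisons, the differences were 0.61 ± 0.11 and 0.37 ± 0.11 (adjusted p = 0.00171 and 0.03188 in limma). The wild-type call was kept in 1 of the 6 fits that left out an array, and both differences turned negative without loess (-0.36 and -0.34). Tg+ I/R above read -0.90, -1.01 and -1.20, against -1.56, -1.43 and -1.50 in Tg+ sham above, and wild-type I/R below read -0.34, -1.32 and -1.29, against -1.54, -1.44 and -1.49 in wild-type sham below. Those groups did not overlap either, and their differences of 0.46 and 0.51 were not called. A further Slc25a17 probe gave 0.41 ± 0.16 in Tg+ below and 0.39 ± 0.16 in wild type above (adjusted p = 0.05113 and 0.09973 in the limma fit of probes). Slc25a16, Slc25a32 (a folate and flavin carrier) and Slc25a36 (a pyrimidine nucleotide carrier) were not called in any I/R comparison.

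Slc25a24 rose in 3 of the 4 comparisons. It read -0.53, 0.01 and -0.13 in Tg+ I/R below, against -1.06, -1.03 and -1.08 in Tg+ sham below. It read -0.70, -0.62 and -0.58 in Tg+ I/R above, against -1.29, -1.15 and -1.23 in Tg+ sham above. Wild-type I/R above read -0.46, -0.11 and -0.52, against -0.94, -1.01 and -1.12 in wild-type sham above, and no I/R array overlapped the sham arrays in these 3 comparisons. The rises were 0.84 ± 0.19 (1.79-fold, adjusted p = 0.003302 in limma), 0.59 ± 0.19 (1.50-fold, adjusted p = 0.03915) and 0.66 ± 0.19 (1.58-fold, adjusted p = 0.02572). Wild-type I/R below read -0.06, -0.89 and -1.07, against -0.90, -1.26 and -1.12, which overlapped and was not called. Its spot was well above background on 2 of 3 arrays in each wild-type I/R group and on all arrays of the other groups. Without the weak arrays the 3 rises were 0.53, 0.59 and 0.50 (adjusted p = 0.008336, 7.435e-05 and 0.01127 in limma), the first and last of them with 1 I/R array. With all other arrays kept, no fit that left out 1 array kept the call in Tg+ above, while 2 of 6 did in wild type above and 6 of 6 in Tg+ below. All 3 calls were lost without loess and with slide as a block. Over all alternatives the smallest differences were 0.02 in Tg+ below, 0.14 in Tg+ above and 0.03 in wild type above. Slc25a25, another ATP-Mg/phosphate carrier, differed by 0.18 to 0.35 and was not called. Its spot was well above background on 2 of 3 arrays in each of Tg+ I/R below and wild-type I/R below.

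Slc25a28 (mitoferrin 2) rose in Tg+ below, where it read 0.49, 0.15 and 0.25 after I/R against -0.11, -0.04 and -0.07 after sham (0.37 ± 0.12, 1.29-fold, adjusted p = 0.02084 in limma). It read 0.52, 0.18 and 0.10 in Tg+ I/R above, against -0.03, -0.00 and -0.16 in Tg+ sham above, and 0.46, 0.23 and 0.45 in wild-type I/R above, against 0.15, 0.12 and -0.06 in wild-type sham above. In the other 3 comparisons it differed by 0.21 to 0.33, with adjusted p from 0.05724 to 0.3132. Without loess the rise in Tg+ below turned to -0.61. Slc25a37 was not called. The citrate carrier Slc25a1, the dicarboxylate carrier Slc25a10, the uncoupling-like carriers Slc25a14 and Slc25a30, and Slc25a35 were not called in any I/R comparison. Of these, Slc25a1, Slc25a30 and Slc25a35 had no detected spot in 1 or more of the I/R groups, as had Slc25a32 and Slc25a36 in Tg+ I/R below, so only a bound is known there.

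Some levels differed between weak and stronger I/R arrays, and no association with the strength of the heart channel was computed. On the 5 weak arrays Slc25a24 lay between -0.46 and 0.01 and Slc25a26 between -0.11 and 0.48. Replicates 2 and 3 of wild-type I/R below, with 38.3% and 37.9% of spots detected, read -0.89 and -1.07 for Slc25a24 and 1.07 and 1.31 for Slc25a26, within or next to the sham range. Other strong I/R arrays read otherwise for Slc25a24. It was -0.52 in wild-type I/R above replicate 3 (37.8%) and -0.70 in Tg+ I/R above replicate 1 (37.9%), over the highest sham array (-0.90). On replicates 2 and 3 of wild-type I/R below, Slc25a13 read 0.95 and 1.02, below every sham array, and on the weak array of that group 0.54. In Tg+ I/R below its lowest value (0.09) was on a weak array and its highest (0.74) on replicate 1, which was not weak. More spots are dim on a weak array, and the offset used in background correction pulls dim ratios toward 0. The part of channel strength in these results was not tested beyond the fits without the weak arrays.

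**Figure D5:**
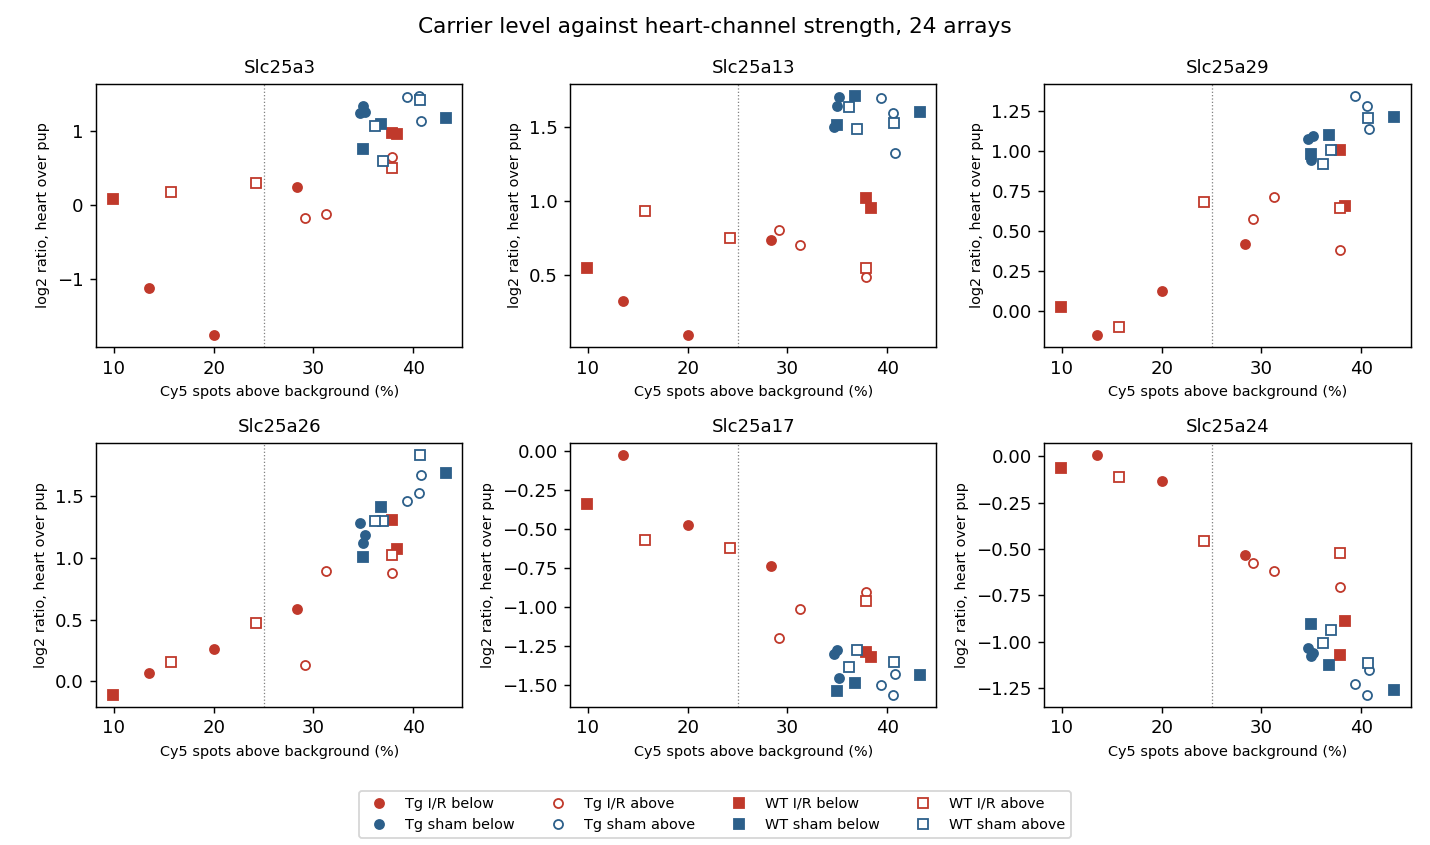
Log2 ratio of heart over pup pool (vertical axis) against the percentage of Cy5 spots well above background (horizontal axis) on 24 arrays for 6 carriers with called I/R differences, with circles for MuRF1 Tg+ (Tg), squares for wild type (WT), filled symbols for tissue below the site, open symbols for tissue above it, red for I/R, blue for sham and a dotted line at 25%. All points left of the line are I/R arrays. Toward the left Slc25a26 is mostly lower and Slc25a17 and Slc25a24 are mostly higher. The lowest Slc25a13 point (0.09) is left of the line, and its I/R points lie under its sham points also right of it.

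The arrays lay on 7 slides, and each slide held arrays of more than 1 group. Slide 2 held only sham arrays and slide 7 only I/R arrays, so slide and surgery were partly confounded. With slide as a block, 4 of the 26 calls of I/R and genotype were kept, among them Slc25a13 in Tg+ below (-1.21, adjusted p = 0.01395 in limma) and Tg+ above (-0.86, adjusted p = 0.02527) and Slc25a3 in Tg+ below (-2.05, adjusted p = 0.03686). Each I/R comparison had 1 slide with an array of both groups. On those slides Slc25a3 differed by -2.46 in Tg+ below, -1.59 in Tg+ above, -0.12 in wild type below and -0.30 in wild type above. In the same order Slc25a24 differed by 1.08, 0.61, 0.05 and 0.48, and Slc25a26 by -1.06, -0.56, -0.10 and -0.83. Slc25a5 differed by -0.40, -0.46, 0.19 and -0.20. All 4 signs of each of these carriers were those of its fitted differences. The pairs are part of the fit, so this is no independent check, and not every carrier kept its signs. In wild type above, Slc25a4 differed by -0.29 on the shared slide against a fitted 0.33. Slc25a20 differed there by 0.10 against a fitted -0.20.

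The genotypes were then compared within each surgery and piece. After sham surgery no carrier was called in tissue below or above the site, beside 0.0262% and 0.0349% of all features. At an unadjusted p under 0.05 in limma there was none either, beside 164 of 11448 features below and 231 of 11447 above. The spread was pooled with the more variable I/R arrays, so these tests between sham groups were conservative. After I/R no carrier was called above the site (0.655% of all features), with 1 at an unadjusted p under 0.05, beside 1614 of 11448 features. After I/R below the site 2 carriers were lower in Tg+ and none higher (2.94% of all features). Slc25a3 differed by -1.55 ± 0.36 (2.93-fold lower, adjusted p = 0.03242 in limma) and Slc25a5 by -0.54 ± 0.13 (1.46-fold lower, adjusted p = 0.03795). The SD of Slc25a3 was 1.02 in Tg+ I/R below and 0.51 in wild-type I/R below. Its SE rests on a spread pooled over all 8 groups and is small for these arrays.

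The Slc25a3 arrays of Tg+ I/R below (0.24, -1.12 and -1.76) overlapped those of wild-type I/R below (0.07, 0.95 and 0.97) at 1 array each, whereas those of Slc25a5 did not overlap. Each of these 2 calls was kept in 2 of the 6 fits that left out an array and lost without the weak arrays, where the differences were -0.73 ± 0.30 (adjusted p = 0.1381 in limma) and -0.55 ± 0.17 (adjusted p = 0.0587). The dimmer Slc25a3 probe gave -1.14 ± 0.43 (adjusted p = 0.1206 in the limma fit of probes). The count of carriers called in this comparison depended on single arrays: it was 14 without wild-type I/R below replicate 1, 7 without Tg+ I/R below replicate 1 and 0 without any of the other 4 arrays. How many of all features were called in these fits is not given here.

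Whether the I/R difference itself depended on genotype was tested as an interaction. Below the site no carrier passed (0.0175% of all features), and 4 had an unadjusted p under 0.05, beside 1200 of 11448 features. The members with the smallest p were Slc25a3 (-1.82 ± 0.51, 95% interval -2.89 to -0.76) and Slc25a5 (-0.68 ± 0.19), both at adjusted p = 0.3164 in limma. Above the site none passed (0.0175% of all features). None had an unadjusted p under 0.05, beside 949 of 11447 features, the smallest being that of Slc25a16 (0.1557). The falls of Slc25a3 and Slc25a5 in Tg+ hearts are thus not shown to differ from the wild-type differences.

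Tissue below the site was compared with tissue above it. After sham surgery no carrier was called in either genotype (0% of all features in both). None had an unadjusted p under 0.05, beside 107 of 11448 features in Tg+ and 15 of 11447 in wild type. With the pooled spread the tests between sham groups were conservative, so small differences are not excluded. After I/R none was called in Tg+ hearts (0.48% of all features) or in wild type (0.0175%). In Tg+ hearts 5 carriers had an unadjusted p under 0.05, beside 2589 of 11448 features. In wild type 1 did, beside 748 of 11448 features. The smallest p values were those of Slc25a17 in Tg+ (0.63 ± 0.20, adjusted p = 0.1168 in limma) and Slc25a5 in wild type (0.33 ± 0.13, adjusted p = 0.7395). The interaction of piece and surgery gave no call in either genotype (0% of all features in both). Its smallest p values were 0.05316 for Slc25a22 in Tg+ and 0.07882 for Slc25a5 in wild type.

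Genes that work beside the carriers were read from lists of partners, whose counts in Tg+ below stand beside the 17.1% of all features that fell there. In Tg+ below, 4 of 9 tested genes of the carrier import path fell after I/R and none rose, among them Timm8b, an intermembrane-space chaperone (-0.83 ± 0.19, adjusted p = 0.00351 in limma), and Timm22, the core of the translocase that inserts carriers into the inner membrane (-0.47 ± 0.14, adjusted p = 0.01425). Timm22 also fell in wild type above (-0.64) and below (-0.52). Of 4 malate-aspartate shuttle enzymes, the aminotransferases Got1 (-1.13 ± 0.22, adjusted p = 0.001137) and Got2 (-0.88 ± 0.18, adjusted p = 0.001503) fell in Tg+ below. Of 5 pyruvate carrier and pore genes, 3 fell there: Brp44l (Mpc1, -0.97 ± 0.25), Brp44 (Mpc2, -0.70 ± 0.19) and Vdac3 (-0.38 ± 0.12). Ppif, encoding cyclophilin D, a regulator of the permeability pore, fell by 1.27 in Tg+ below (adjusted p = 0.009654) and was not called elsewhere. Of 4 genes of the carnitine system, Crat (carnitine acetyltransferase) fell in Tg+ below (-0.69) and wild type above (-0.66). Among family members under other names (Ucp1, Ucp2, Ucp3, Mtch1 and Mtch2), Mtch2 fell in Tg+ below (-0.80) and Tg+ above (-0.51). The median of each list in Tg+ below was -0.27 for import, -0.77 for the shuttle enzymes, -0.38 for pyruvate carrier and pores and -0.04 for the carnitine system.

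Markers of other cell types moved with surgery. Both neutrophil markers (S100a8 and S100a9) rose in all 4 comparisons, with medians of 3.90 in Tg+ below, 2.60 in Tg+ above, 3.08 in wild type below and 2.90 in wild type above. Their summed Cy5 intensity was 785 to 2135 in Tg+ I/R below, against 169 to 195 in Tg+ sham below. The 4 atrial muscle markers were on average 2.63 to 2.68 (log2 ratio) in Tg+ I/R above and -1.93 to 1.88 in Tg+ sham above, with 2 of 4 called higher. In wild type their average ran from -0.59 to 4.14 in I/R above and from -1.70 to 0.61 in sham above. Of 7 ventricular markers none was called in the other 3 comparisons and 2 fell in Tg+ below, where the list median was -0.38. Of 4 fibroblast markers 1 rose in each of Tg+ below and above, and of 4 endothelial markers 2 fell in Tg+ below and in both wild-type pieces. Of 4 macrophage markers 1 or 2 rose in each comparison, no erythroid marker was called, and the fat marker Cidea rose in Tg+ below (1.22). The part of these cells in the carrier differences was not tested.

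The array also carries 14 carriers under older names, which are no members by the naming rule. Of these, 8 were well above background in at least 1 group once names were updated through a RefSeq gene table. Slc25a33, a pyrimidine nucleotide carrier listed as 5730438N18Rik, had a median log2 ratio of 0.29 on I/R arrays (range -0.34 to 0.67) and 0.80 on sham arrays (0.65 to 1.02). It fell by 0.94 in Tg+ below (adjusted p = 0.0001209 in limma) and by 0.79 in Tg+ above (adjusted p = 0.001238), and was not called in wild type (-0.35 below and -0.24 above). After I/R below the site Slc25a33 was lower in Tg+ than in wild type (-0.50 ± 0.13, adjusted p = 0.0497 in limma). Slc25a38, the glycine carrier, fell by 0.39 in Tg+ below (adjusted p = 0.04363) and Slc25a51, the NAD carrier, by 0.34 in Tg+ above (adjusted p = 0.03402). Slc25a39, Slc25a40 and Slc25a44 were not called in any of the 4 I/R comparisons.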

How the data were processed

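RNA from 24 heart pieces was read on two-colour Agilent arrays against a pup pool, with 50 ng of RNA amplified and labelled. A protocol text names Cy3-CTP, while the label fields give Cy5 to the heart in all samples (no dyes were exchanged), and ratios were taken as Cy5 over Cy3. Scans were quantified in Feature Extraction 9.5.3.1, per the file headers. The deposited intensity values are spot means and background medians, not normalized. The deposited log10 ratio, per the file headers, is red over green from Agilent's processed signals. The deposited series table holds log2 ratio values (correlation at least 0.986 with each array's own ratios, column medians -0.11 to 0.14), with centring not stated.

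Background was corrected by normexp (offset 50) and ratios by loess within arrays (limma 3.58.1, R 4.3.3), where control spots and flagged outliers had weight 0. The offset pulls dim ratios toward 0. Of 41174 probes, 15427 were kept, and no spot was saturated. One fit of 8 group means (lmFit, eBayes; 16 residual degrees of freedom) served all comparisons, with Benjamini-Hochberg adjustment within each and a threshold of 0.05. Values after ± are standard errors unless given as SD. The standard errors rest on 1 spread per feature, pooled over the 8 groups. Over all features the median SD within a group was 0.12 to 0.22 in the I/R groups and 0.07 to 0.10 in the sham groups. The pooled spread can thus be too small for I/R groups and too large for sham groups. Both pieces of each heart were in the fit, so results in both pieces are not independent. Comparisons of I/R with sham share their arrays with those of genotype and piece. The fit was tested on simulated data.

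The members and lists were chosen with earlier results of these data known. Named were Slc25a3, Slc25a4, Slc25a5, Slc25a11, Slc25a12, Slc25a13 and Slc25a20, then up to 6 rises and 6 falls past the threshold in each comparison, or the smallest p where none passed. One member is counted but not reported here by name. Separate probes of a member were fitted after seeing the data.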

Additional observations from a re-analysis of the deposited data

How the results depend on the processing

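Of 563 values of called carriers under alternatives, 382 kept direction and side of the threshold, 178 kept direction only and 3 reversed. Of 410 values of uncalled carriers, 337 stayed, 26 passed the threshold, 44 moved and 3 reversed. The cause was not tested. Without loess, the median of all features moved to -0.51 (Tg+ below), -0.35 (Tg+ above), -0.26 (wild type below) and -0.44 (wild type above), and reversals in Tg+ below were Slc25a17 (-0.36), Slc25a28 (-0.61) and Slc25a4 (-2.88), with Slc25a17 at -0.34 in wild type above. There higher calls were 0.604%, 3.19%, 19% and 1.06% of all calls, against 47.3%, 45.2%, 38.4% and 45% as reported. With Feature Extraction's log ratio they were 37.9%, 54.8%, 52.1% and 43.2%, and with detection on all 24 arrays 55%, 57.2%, 61.5% and 65.6%. Slc25a4 in Tg+ below was -1.13 with Feature Extraction's log ratio and -1.13 with the series value table.

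Counts of called carriers follow for I/R against sham, and calls over all features changed with the setting too. In Tg+ above these were 1757 as reported, 3712 with only the arrays compared, 5127 with weights and 4771 without weak arrays. In Tg+ below 3716 became 240 with slide and 6186 with weights. In wild type below 641 became 25 with slide and 2033 with weights. In wild type above 1520 became 259 with slide and 4390 with weights. In Tg+ below, 10 became 6 with detection on all arrays and 2 with slide as a block, and 7 to 10 with 1 array left out. In Tg+ above, 7 became 3 with Feature Extraction's ratio, 2 without loess, 3 without a filter, 4 with detection on all arrays, 2 with slide, 11 with only the arrays compared, 16 with array weights, 14 without weak arrays, 3 with the value table, and 1 to 5 with 1 array left out. In wild type below, 2 became 1 without background correction, 0 with Feature Extraction's ratio, without loess, with Cy5 alone, with slide, with only the arrays compared or with the value table, 1 with detection on all arrays, 1 with the replicate block, 5 with weights, 4 without weak arrays, and 1 to 3 with 1 array left out. In wild type above, 5 became 0 without loess or with slide, 2 without a filter, 3 with detection on all arrays, with the replicate block or with only the arrays compared, 12 with weights, and 1 to 5 with 1 array left out.

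Between genotypes after I/R below, 2 became 4 with Feature Extraction's ratio, 6 with Cy5 alone, 1 with the mean of probes, 16 with weights, 3 without weak arrays, 0 without loess, without a filter, with slide, with the replicate block or with only the arrays compared, and 0 to 14 with 1 array left out. Above, 0 became 1 with updated names (Slc25a46), and below, updated names added Slc25a33 (-0.50, adjusted p = 0.0497 in limma). Below against above after I/R, 0 became 7 in Tg+ and 9 in wild type with weights, 1 in Tg+ with Feature Extraction's ratio or the value table, and 0 to 5 (Tg+) and 0 to 3 (wild type) with 1 array left out, the highest without replicate 1 of the I/R below group. With weights the interactions gave 14 (genotype, below), 2 (piece, Tg+) and 3 (piece, wild type). The genotype interaction below gave 0 to 7 with 1 array left out, 7 without wild-type I/R below replicate 1. Calls over all features under these alternatives are not given here, so the counts are not read as a result about the carriers.

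The replicate number as a block kept 19 of 26 calls and heart as a random block 26. Deviations of the 2 pieces with 1 number correlated at 0.14 to 0.54 in all 6 Tg+ pairs and at -0.73 to 0.53 in wild type, where 4 of 6 were under 0. The labels used here do not say whether a number marks a heart. Spots near background on the 5 weak arrays limit the precision there, and the offset pulls their ratios toward 0 from either side. The part of this pull in the I/R differences was not tested.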
